A study of Mus musculus with 22 samples.

Results

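Solute carriers are the membrane proteins that move amino acids, sugars, lactate, ions, metals and nucleosides across the plasma membrane and the membranes of lysosomes, endosomes, the Golgi and the endoplasmic reticulum. Ribosome profiling and RNA sequencing of mouse quadriceps muscle measured 63 of their genes among 6054 genes listed in the deposited count table. They are all genes whose symbol begins with Slc and a family number, without the mitochondrial Slc25a family. Of the 63, the amino acid families Slc1, Slc3, Slc7 and Slc38 held 9, the glucose family Slc2 held 2, and the ion families held 16. Transition metal carriers numbered 12, carriers of nucleosides, nucleotide sugars, sugar phosphates and acetyl-CoA 9, and the remaining families 15. Slc4a1ap and Slc9a3r2 fall under the naming rule and were counted with the ion families, but they encode partner proteins of carriers, not carriers. All 63 genes passed the filter on low counts.

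The mice were C57Bl/6 animals, fasted overnight in every group, and quadriceps was taken 30 minutes after an oral gavage of leucine or of vehicle. No dose, age or sex was given in the labels used here, and tissue was homogenised without separating its cell types. There were 6 leucine and 5 vehicle libraries of ribosome footprints (pieces of mRNA that a bound ribosome shields during nuclease treatment), and 6 leucine and 5 vehicle libraries of total RNA. The study asked how leucine changes gene expression in muscle.

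Many carriers work by exchange or by coupling to the sodium gradient. System A carriers such as Slc38a2 bring in small neutral amino acids with sodium, and the heavy chain encoded by Slc3a2 pairs with light chains of the Slc7 family that exchange larger amino acids, leucine among them. Slc38a9 sits on the lysosome and signals luminal arginine to mTORC1, the kinase complex that leucine activates through cytosolic sensors. Muscle is known for Slc2a4 (GLUT4), the glucose carrier that insulin and contraction bring to the surface, and for Slc16a3 (MCT4), through which glycolytic fibres release lactate.

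Total counts were 21697096 to 47646844 in leucine footprint libraries, 24432316 to 48996109 in vehicle footprint libraries, 17941961 to 30944085 in leucine RNA libraries and 15016267 to 27305083 in vehicle RNA libraries. Nothing in the labels states that each library came from its own animal, and the spread that the p-values rest on may be technical. Column names carry 2 prefixes of unstated meaning, here sets A and B, and a name such as leucine A1 gives a library's treatment, its set and its place among those columns. In RNA, 163 genes had an unadjusted p under 0.05 in edgeR's test between treatments with all libraries, 0 of them carriers. Without leucine library A3 there were 379, 2 of them carriers. After adjustment 0 genes were called either way. All 10 listed markers of the muscle fibre, fast myosins among them, were measured and none of the 5 slow fibre markers was in the table. The fibre markers summed to 285500 to 416300 normalised read counts (CPM, counts scaled to a common library total) in leucine footprints and 264800 to 328400 CPM in vehicle footprints. Of 8 fibroblast and matrix markers all were measured, at 8858 to 11460 CPM in leucine footprints and 8677 to 16350 CPM in vehicle footprints, and 7 of 10 endothelial markers were measured. Their part in the carrier results was not tested. In whole tissue, fewer cells of a type and less RNA per cell cannot be told apart.

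Carriers were minor messages in this muscle, and a few stood far above the rest. Together the 63 genes took 0.303% ± 0.0256 of footprint counts in leucine libraries and 0.325% ± 0.0205 in vehicle libraries (SD, n = 6 and 5). Per kilobase of coding sequence, the median carrier had 12.7 footprint CPM in vehicle libraries, against 21.2 over all genes with a coding length. Slc2a4 was the highest, with 377 footprint CPM per coding kilobase. Slc16a3 followed with 254, then the System A carriers Slc38a2 with 184 and Slc38a4 with 107. Next came Slc37a4, the glucose 6-phosphate carrier of the endoplasmic reticulum, with 95.9, and Slc41a3, of the magnesium carrier family, with 77.4. Slc2a4 and Slc16a3 were also the highest by RNA per kilobase of transcript, with 155 and 105 CPM. The order changed below them: Slc3a2 was rank 10 by footprints per coding kilobase and rank 42 by RNA per transcript kilobase among the 63 genes.

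The carriers differed widely in how many footprints they had relative to their RNA. In the 10 vehicle libraries, edgeR's quasi-likelihood test called the footprint to RNA ratio of 17 carriers higher than the typical gene (27%, where 37.2% of all genes were called) and of 35 lower (55.6%, where 38% of all genes were called). The median carrier had a log2 ratio of -0.42 (0.747-fold), against -0.001 over all genes. The groups differed: amino acid carriers had a median of 0.54 (5 higher, 3 lower), ion carriers of -0.47 (5 higher, 10 lower) and transition metal carriers of -0.87 (1 higher, 9 lower). These group medians are descriptions, without a test of the group, and the counts shift with the coding share offset given below.

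The mRNAs with the highest and lowest ratios are shown by the bases around their annotated start codon, since this is where ribosomes begin and the surrounding letters are a known feature of initiation. The sequences come from GENCODE release 21 transcripts, from 10 bases before to 7 bases after the ATG, written 5′ to 3′, with the coordinates of the codon. Capitals mark the ATG, a purine 3 bases before it and a G directly after it. The first set has the 6 highest ratios.
Slc3a2, GRCm38 chr19:8723093-8723095, minus strand: atccatctctATGGatcctg
Slc1a5, GRCm38 chr7:16781901-16781903, plus strand: acggctcAgcATGGcagtgg
Slc38a2, GRCm38 chr15:96698728-96698730, minus strand: cccgagcAgcATGaagaaga
Slc9a8, GRCm38 chr2:167421752-167421754, plus strand: aggggagAagATGGcggagg
Slc29a1, GRCm38 chr17:45592205-45592207, minus strand: cactggaGccATGacaacca
Slc38a3, GRCm38 chr9:107659193-107659195, minus strand: tctctgaGccATGGagatac
The second set has 5 of the 6 lowest ratios.
Slc4a4, GRCm38 chr5:88934750-88934752, plus strand: ccccaggAggATGGaggatg
Slc8a1, GRCm38 chr17:81649605-81649607, minus strand: attgtacAacATGcttcgat
Slc48a1, GRCm38 chr15:97784481-97784483, plus strand: ccgctgccccATGGccccgt
Slc20a1, GRCm38 chr2:129199719-129199721, plus strand: acactagAgaATGGaatcta
Slc30a9, GRCm38 chr5:67307095-67307097, plus strand: ccccgccAggATGtttccgg
A purine 3 bases before the ATG stood in 5 of the 6 high and 4 of the 5 low mRNAs, so this position did not separate the sets. Over the 61 carriers with a window it stood in 80.3%, against 88.3% of 5880 genes. A G directly after the ATG stood in 60.7% of carriers and 52.8% of all genes. The annotated leader held at least 1 upstream ATG in 59.0% of carriers and 50.4% of all genes, and its median length was 244 bases in carriers and 178 bases in all genes. Of the low mRNAs shown, Slc20a1 had 5 upstream ATGs, Slc30a9 had 2, Slc8a1 had 1 and Slc4a4 and Slc48a1 had none. Of the high ones, Slc1a5 had 1 and the other 5 had none. These are counts of letters in annotated transcripts, and no site was tested.

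Amino acid carriers led the high end. Slc3a2, the heavy chain above, had 53.1, 52.9, 60.0, 57.6 and 52.2 footprint CPM and 15.5, 20.6, 19.6, 15.4 and 20.6 RNA CPM in vehicle libraries. The log2 ratio was 1.78 ± 0.10 (SE), the highest of the 63. Slc1a5, the ASCT2 carrier that exchanges glutamine and other neutral amino acids, had a ratio of 1.47 ± 0.45. Its RNA was at 10.1, 23.8, 13.1, 10.2 and 51.1 CPM in vehicle libraries, with library B2 far above the others. Without that library the ratio was 2.11, and within set B alone it was 0.70 and did not pass edgeR's test (adjusted p = 0.535). Slc38a2 had a ratio of 1.005 ± 0.13, and the glutamine carrier Slc38a3 of 0.81 ± 0.31. The Slc38a3 call was lost with the coding share offset described below (adjusted p = 0.0523 in edgeR's test) and within set B alone (adjusted p = 0.327). Outside that family, Slc9a8, a sodium and proton exchanger of the Golgi and endosomes, had a ratio of 0.90 ± 0.10, the nucleoside carrier Slc29a1 of 0.85 ± 0.12, the choline carrier family member Slc44a2 of 0.78 ± 0.13 and Slc43a1, a carrier of branched-chain amino acids, of 0.78 ± 0.21. The offset ended the call of Slc43a1 (0.39, adjusted p = 0.106). In leucine libraries only the log2 ratio of group mean CPM was computed, with CPM scaled within each assay. It cannot be set directly against edgeR's ratios above. It was 1.75 for Slc3a2, 1.45 for Slc1a5, 1.04 for Slc38a2, 0.70 for Slc9a8, 0.33 for Slc29a1 and 0.29 for Slc38a3. By edgeR's ratio in vehicle libraries, Slc2a4 and Slc16a3 were also above the typical gene, at 0.58 ± 0.10 and 0.64 ± 0.15.

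Zinc, heme and ion carriers made up the low end. Slc30a9, a zinc carrier of mitochondria, had 28.6, 29.8, 26.8, 31.7 and 31.3 footprint CPM in vehicle libraries, and 133.9, 128.2, 136.6, 143.9 and 135.8 RNA CPM. The log2 ratio was -2.01 ± 0.08, the lowest of the 63. The phosphate carrier Slc20a1 was at -1.79 ± 0.23. Slc48a1, which moves heme out of endosomes and lysosomes, was at -1.72 ± 0.11. The sodium and calcium exchanger Slc8a1 was at -1.49 ± 0.19 and the sodium bicarbonate cotransporter Slc4a4 at -1.47 ± 0.13. Slc8a1 has a coding share of 15.7%, and with the offset its ratio turned to 0.31 and was not called (adjusted p = 0.142 in edgeR's test). Slc30a5, a zinc carrier of the secretory pathway, was at -1.47 ± 0.09. In leucine libraries the log2 ratio of group mean CPM, which cannot be set directly against edgeR's ratios, was -2.34 for Slc30a9 and -1.99 for Slc20a1.

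Footprints come mainly from coding sequence and RNA reads from the whole transcript, so the coding share of a transcript bears on the ratio. Across 5985 genes its correlation with the log2 coding share of the transcript was r = 0.286, and across the 63 carriers r = 0.35, as descriptions of genes that share the same libraries. The median coding share was 49.9% in carriers and 54.7% in all genes. With the coding share taken as an offset, a setting chosen after the data were seen, 23 carriers were higher (36.5%, all genes 42.3%) and 18 lower (28.6%, all genes 34.3%), and the median carrier was at -0.07, against 0.095 over all genes. By group, the offset gave 6 higher and 1 lower among amino acid carriers, 3 higher and 6 lower among ion carriers, and 4 higher and 6 lower among transition metal carriers. Of the calls above, 13 were higher and 18 lower in both forms, among them Slc3a2 (1.63 with the offset), Slc38a2 (1.74), Slc2a4 (0.59), Slc30a9 (-1.88) and Slc20a1 (-1.97). Another 5 turned from lower to higher: Slc16a10, Slc30a7, Slc37a3, Slc38a9 and Slc5a3. Slc38a9, with a coding share of 18.9%, stood at -0.50 ± 0.11 without the offset and at 1.03 with it. Slc48a1, with a coding share of 17.3%, stood at -0.07 with the offset and no longer passed the test. The offset takes the ratio as proportional to the coding share. The fitted slope of the log2 ratio on the log2 coding share was 0.383 over all genes, a weaker dependence. From that fitted line, the median carrier lay at -0.20, with 24 carriers above the line and 39 below. Group medians from the line were 0.66 for amino acid, -0.46 for ion and -0.76 for transition metal carriers. The 5 that turned lay at -0.21 (Slc16a10), -0.12 (Slc30a7), -0.05 (Slc37a3), 0.06 (Slc38a9) and -0.54 (Slc5a3) from the line. Slc48a1 lay at -1.12 and Slc8a1 at -0.83 from it, so these turns and lost calls depend on the form of correction. How the authors counted reads in untranslated parts is not given in the sources used here.

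**Figure D1:**
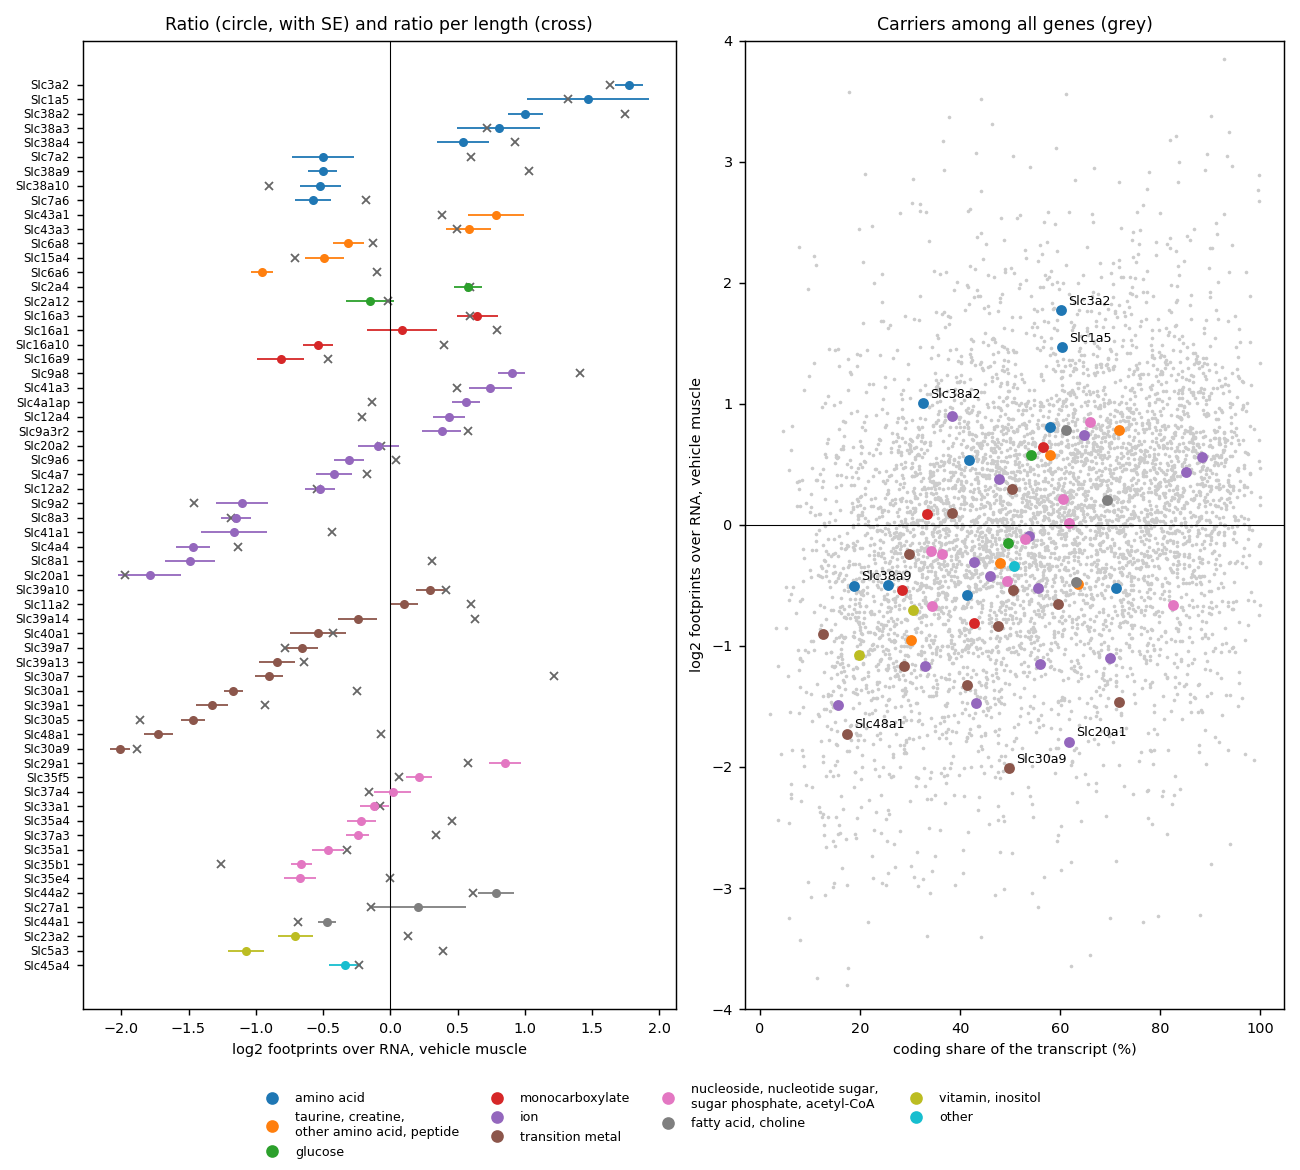
Left, log2 footprint to RNA ratio of 62 of the 63 carriers in vehicle muscle, by group, as circles with standard errors, and the ratio with the coding share offset as crosses. Right, the ratio against the coding share of the transcript in percent, with carriers in colour and all other genes in grey. Slc3a2 lies highest at 1.78 and Slc30a9 lowest at -2.01, and carriers of low coding share such as Slc38a9 have crosses far to the right of their circles.

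Between leucine and vehicle muscle, no carrier was called in footprints, RNA or translational efficiency 30 minutes after gavage. In footprints, edgeR's quasi-likelihood test with Benjamini-Hochberg adjustment over 6054 genes called 0 of 63 carriers, where 0.694% of all genes were higher and 0.0661% lower in leucine. In RNA it called 0 of 63 (all genes 0%), and for efficiency, the change in footprints relative to RNA, 0 of 63 (all genes 0%). DESeq2 and limma-voom also called 0 carriers in each of the 3 comparisons, although DESeq2 gave an adjusted p for efficiency to only 15 carriers. At an unadjusted p under 0.05, edgeR had 2 carriers in footprints (all genes 12.1%), 0 in RNA (all genes 2.69%) and 3 in efficiency (all genes 7.09%). The median log2 change of the carriers was -0.02 in footprints, -0.01 in RNA and -0.03 in efficiency, beside -0.01, 0.00 and -0.02 over all genes. In no carrier did all leucine libraries lie on 1 side of all vehicle libraries, in footprints (all genes 1.75% higher and 0.743% lower) or in RNA (all genes 0.132% higher and 0.0661% lower).

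The 95% interval of the footprint change lay within 1.5-fold in both directions for 55 of the 63 carriers, against 91.3% of all genes. The same held for 54 carriers in RNA (85.7%, all genes 87.3%) and 40 in efficiency (63.5%, all genes 72.5%). Intervals lay within 2-fold for 62, 62 and 56 carriers. Over all genes, 5909, 5870 and 5653 of 6054 did. Wide intervals belonged to genes that varied much among libraries. The pooled SD of log2 CPM was 0.575 in footprints and 0.446 in RNA for Slc27a1. It was 0.53 and 0.55 for Slc7a2, and 0.39 and 0.78 for Slc1a5. The median carrier had 0.20 in footprints and 0.23 in RNA, beside 0.16 and 0.19 over all genes. Slc44a1, a choline carrier, was the steadiest in footprints, with an SD of 0.07.

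**Figure D2:**
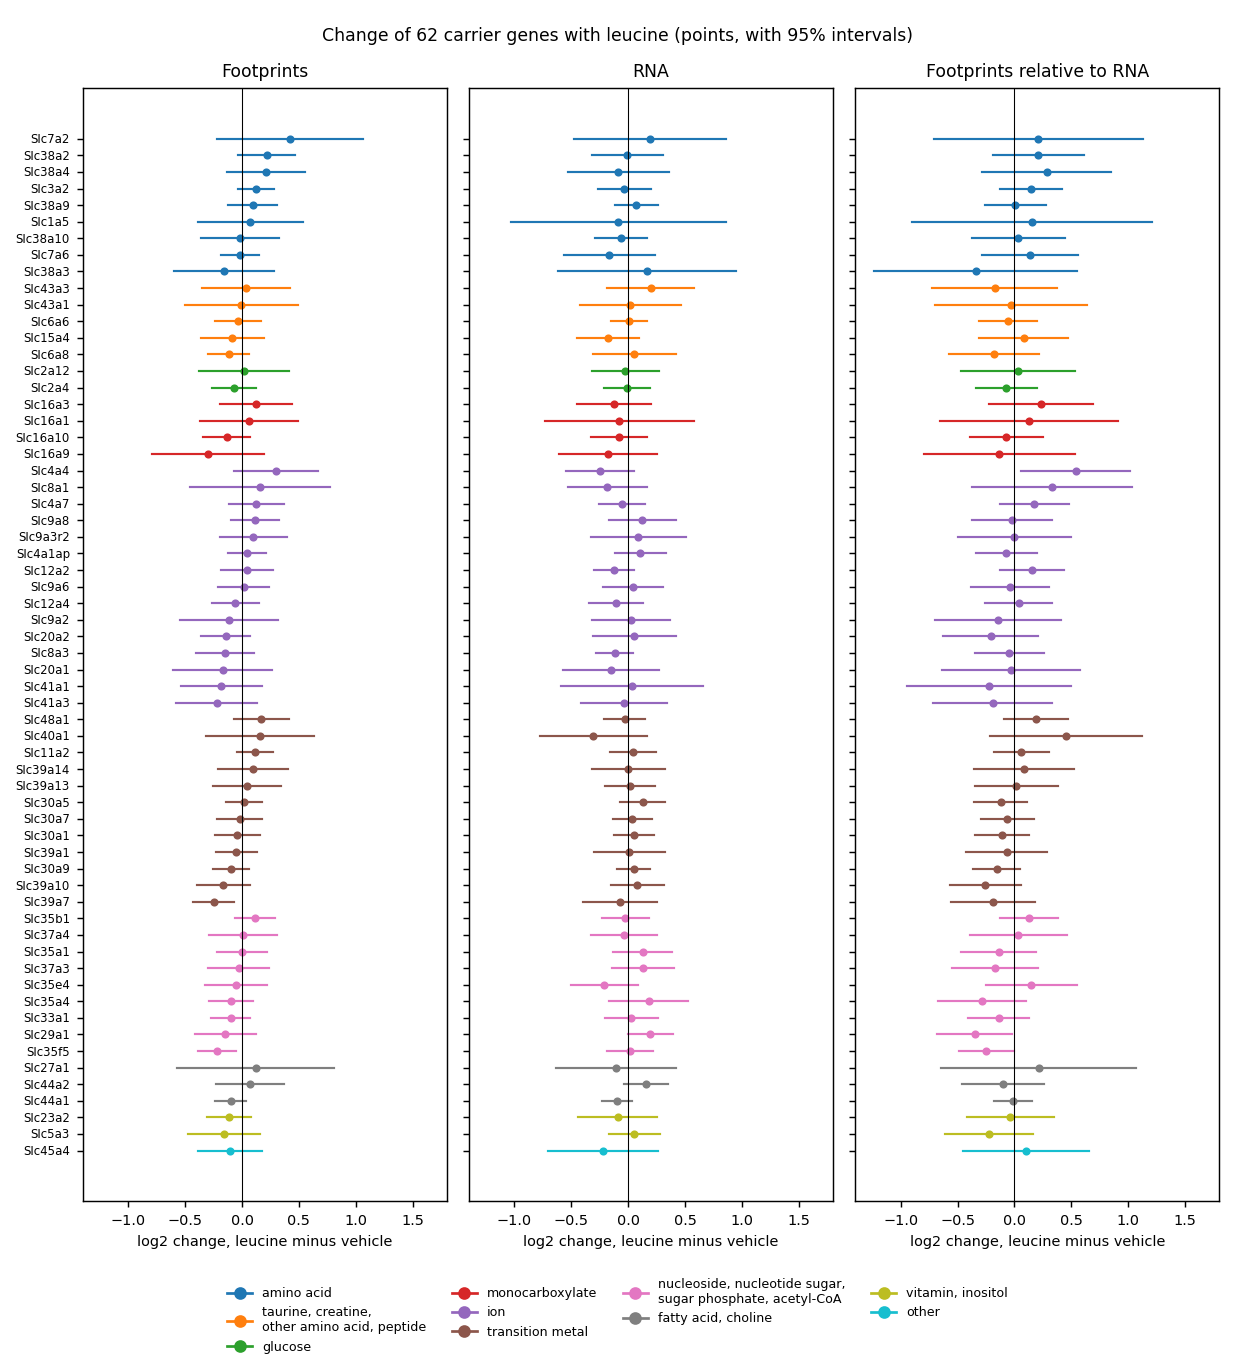
Log2 change of 62 of the 63 carrier genes, leucine minus vehicle, in footprints, RNA and footprints relative to RNA, as points with 95% intervals, coloured by carrier group. In footprints all intervals but those of Slc39a7 and Slc35f5 contain 0, and the widest belong to Slc27a1 and Slc7a2.

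None of the 9 amino acid carriers was called. In footprints 6 of them had a positive change (all genes 2795 of 6054), and the group's median was 0.09 (all genes -0.01). For efficiency 8 were positive (all genes 2716 of 6054), with a median of 0.14 (all genes -0.02). These values are descriptions of genes that share the same libraries. Slc38a2 footprints ran from 246 to 407 CPM (median 312 CPM) in leucine libraries, against 301, 251, 307, 264 and 266.5 CPM in vehicle libraries. The groups overlapped, with 4 leucine libraries above all vehicle libraries and 2 among them or lower, and the log2 change was 0.22 ± 0.12 (95% interval -0.03 to 0.47, adjusted p = 0.48). Slc38a4 footprints ran from 159 to 244.5 CPM (median 211 CPM) in leucine libraries, against 166, 117, 175, 227 and 192 CPM in vehicle libraries. Again the groups overlapped, and the change was 0.21 ± 0.16 (interval -0.14 to 0.55). Slc3a2 footprints ran from 52.8 to 67.3 CPM (median 60.1 CPM) in leucine libraries, against 53.1, 52.9, 60.0, 57.6 and 52.2 CPM in vehicle libraries. For this heavy chain 3 leucine libraries lay above all vehicle libraries, and the change was 0.12 ± 0.07 in footprints (interval -0.04 to 0.28) and -0.04 ± 0.11 in RNA.

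Slc7a2, a carrier of arginine and lysine, had the largest positive footprint change of all 63. Slc7a2 footprints ran from 46.04 to 133 CPM (median 68.3 CPM) in leucine libraries, against 86.9, 54.5, 59.0, 40.7 and 44.7 CPM in vehicle libraries. Slc7a2 RNA ran from 61.6 to 203 CPM (median 95.1 CPM) in leucine libraries, against 134.5, 99.6, 90.9, 64.6 and 71.9 CPM in vehicle libraries. In both assays library A1 was the highest of the leucine group, every set B library lay below every set A library, and the change of 0.42 ± 0.29 in footprints and 0.19 ± 0.31 in RNA had wide intervals (-0.22 to 1.06 and -0.47 to 0.86). Slc1a5 footprints ran from 37.8 to 83.6 CPM (median 52.3 CPM) in leucine libraries, against 74.7, 42.2, 61.0, 45.3 and 43.1 CPM in vehicle libraries. Its footprint change was 0.07 ± 0.21. Its RNA change of -0.09 ± 0.43 became 0.53 without vehicle library B2, again without passing the test. Slc38a3 was at -0.16 ± 0.20 in footprints, 0.17 ± 0.36 in RNA and -0.34 ± 0.43 in efficiency, 1 of the widest intervals (-1.23 to 0.55). Slc38a9, the lysosomal arginine sensor, had 9.498 ± 0.92 CPM in leucine and 8.93 ± 1.09 CPM in vehicle libraries (SD, n = 6 and 5) in footprints, a change of 0.09 ± 0.10. Slc7a6, a light chain partner of Slc3a2, had 9.77 ± 0.83 CPM in leucine and 9.92 ± 0.48 CPM in vehicle libraries (SD, n = 6 and 5), a change of -0.02 ± 0.08. Slc38a10 was at -0.02 ± 0.16 with all libraries and at 0.17 without vehicle library B2.

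Carriers of single amino acids and related compounds were also without a call. The taurine carrier Slc6a6 had 28.2 ± 3.19 CPM in leucine and 28.9 ± 3.10 CPM in vehicle libraries (SD, n = 6 and 5) in footprints, a change of -0.04 ± 0.09 with the interval -0.24 to 0.16. The creatine carrier Slc6a8 was at -0.12 ± 0.08 and Slc15a4, which carries histidine and peptides out of lysosomes, at -0.08 ± 0.13. Slc43a1 footprints ran from 24.5 to 60.0 CPM (median 34.1 CPM) in leucine libraries, against 55.1, 31.9, 34.04, 36.6 and 27.5 CPM in vehicle libraries. Both groups spread widely and the change was -0.01 ± 0.23. Slc43a3, known in human cells as a purine base carrier, was at 0.04 ± 0.18 in footprints and 0.20 ± 0.18 in RNA. Slc16a10, a carrier of aromatic amino acids from the monocarboxylate family, was at -0.14 ± 0.09 and -0.08 ± 0.11.

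**Figure D3:**
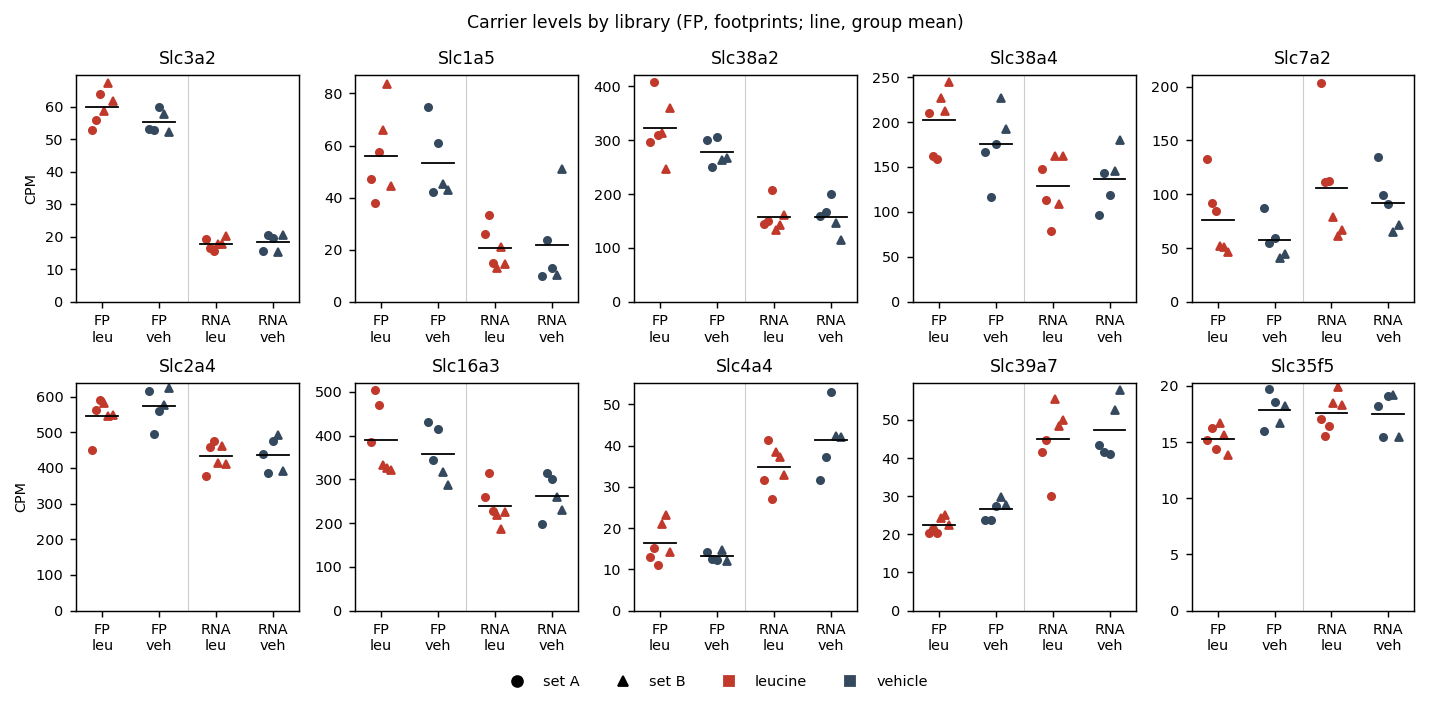
CPM of 10 carriers in every library, with footprints (FP) in leucine and vehicle libraries on the left of each panel and RNA in leucine and vehicle libraries on the right. Circles are set A, triangles set B, and lines group means. Leucine and vehicle points overlap in every panel, and Slc7a2 is lower in set B than in set A in all 4 groups.

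Neither glucose carrier was called. Slc2a4 footprints ran from 449.7 to 589.8 CPM (median 556 CPM) in leucine libraries, against 617, 495, 561, 577 and 625.1 CPM in vehicle libraries. Slc2a4 RNA ran from 378 to 476 CPM (median 437 CPM) in leucine libraries, against 439.6, 386, 476, 492 and 391.8 CPM in vehicle libraries. The groups overlapped in both assays, and library A1 was the lowest of the leucine footprints. The log2 change was -0.07 ± 0.09 in footprints (interval -0.27 to 0.12) and -0.01 ± 0.09 in RNA (interval -0.21 to 0.19). Slc2a12 (GLUT12) had 12.4 ± 2.89 CPM in leucine and 12.3 ± 3.27 CPM in vehicle libraries (SD, n = 6 and 5) in footprints, a change of 0.02 ± 0.18. Of 24 listed genes of glucose uptake and GLUT4 traffic 18 were measured, and 0 passed the test in footprints, RNA or efficiency. Their median footprint change was 0.03. Sort1, the sortilin of GLUT4 storage vesicles, was at 0.40 ± 0.19 (adjusted p = 0.422), Hk2, the hexokinase of muscle, at 0.01 ± 0.09, and Tbc1d4, the GTPase activator that holds GLUT4 inside, at 0.04 ± 0.13. The 5 genes whose log2 footprint level was most like that of Slc2a4 over the 11 footprint libraries were Lrrc38 (Pearson r 0.875), Cdipt (0.846), Ints8 (0.846), Dolk (0.812) and Man2a2 (0.807). They were picked as the highest values among all genes tested, with treatments and sets pooled, as a description without a test. Whether they share regulation with Slc2a4 was not tested.

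Monocarboxylate carriers also overlapped between treatments. Slc16a3 footprints ran from 320.5 to 504 CPM (median 359 CPM) in leucine libraries, against 431, 343, 414, 317 and 286 CPM in vehicle libraries. The change was 0.12 ± 0.15 in footprints and -0.13 ± 0.15 in RNA, and every set B footprint library lay below every set A library. Slc16a1 (MCT1), through which lactate enters oxidative cells, had 54.9 ± 15.01 CPM in leucine and 52.6 ± 11.3 CPM in vehicle libraries (SD, n = 6 and 5) in footprints, a change of 0.06 ± 0.20. Slc16a9 had the largest negative footprint change of the 63, -0.30 ± 0.23, at a low level of 8.05 ± 2.90 CPM in leucine and 9.91 ± 2.59 CPM in vehicle libraries (SD, n = 6 and 5). Of 25 listed partners and regulators of carriers 18 were measured and 0 passed the test. Bsg, the basigin that brings Slc16a1 and Slc16a3 to the surface, was at 0.25 ± 0.11 in footprints (adjusted p = 0.388). Hif1a, the hypoxia factor, was at -0.26 ± 0.06 (adjusted p = 0.0571).

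Among the 16 ion carrier genes, Slc4a4, which moves sodium with bicarbonate, had the largest change of efficiency of the 63. Slc4a4 footprints ran from 11.1 to 23.1 CPM (median 14.7 CPM) in leucine libraries, against 14.2, 12.5, 12.4, 14.6 and 12.1 CPM in vehicle libraries. Slc4a4 RNA ran from 27.1 to 41.4 CPM (median 35.02 CPM) in leucine libraries, against 31.7, 37.3, 53.0, 42.4 and 42.2 CPM in vehicle libraries. Leucine footprints reached above all vehicle values in 3 libraries but overlapped in the rest. The efficiency change was 0.54 ± 0.23 (interval 0.06 to 1.01, adjusted p = 0.635) and did not pass, nor did the changes in footprints (0.30 ± 0.17) or RNA (-0.25 ± 0.14). Slc8a1 was at 0.16 ± 0.28 in footprints and 0.33 ± 0.34 in efficiency. The related exchanger Slc8a3 was at -0.15 ± 0.12 in footprints. Slc12a2, the sodium, potassium and chloride cotransporter NKCC1, had 106.5 ± 9.75 CPM in leucine and 103 ± 15.8 CPM in vehicle libraries (SD, n = 6 and 5) in footprints, a change of 0.04 ± 0.10. The phosphate carriers Slc20a1 and Slc20a2 were at -0.17 ± 0.20 and -0.14 ± 0.10, and Slc41a3 at -0.22 ± 0.16. The ion group as a whole had 8 positive and 8 negative footprint changes, with a median of -0.02.

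The 2 carriers at an unadjusted p under 0.05 in footprints were Slc39a7, a zinc carrier, and Slc35f5, of the Slc35 family. Slc39a7 footprints ran from 20.3 to 25.2 CPM (median 21.9 CPM) in leucine libraries, against 23.7, 23.9, 27.4, 29.8 and 27.8 CPM in vehicle libraries. Slc39a7 releases zinc from the endoplasmic reticulum. The groups overlapped at 23.7 to 25.2 CPM with the sets together. Within set A leucine libraries had 20.3 to 21.4 CPM, against 23.7 to 27.4 CPM in vehicle. Within set B they had 22.4 to 25.2 CPM, against 27.8 and 29.8 CPM in vehicle. Slc39a7 was picked for its small p, and how many of all genes separate within both sets was not counted. The footprint change over all libraries was -0.25 ± 0.08 (interval -0.43 to -0.07, adjusted p = 0.232). With set in the model the adjusted p was 0.0524, the lowest among the alternatives. The change of Slc39a7 was -0.07 in RNA and -0.19 in efficiency, neither at an unadjusted p under 0.05. Slc35f5 footprints ran from 13.8 to 16.7 CPM (median 15.4 CPM) in leucine libraries, against 15.98, 19.7, 18.6, 16.7 and 18.2 CPM in vehicle libraries. The change of Slc35f5 was -0.22 ± 0.08 (adjusted p = 0.249) in footprints, 0.01 ± 0.09 in RNA and -0.25 ± 0.11 in efficiency. Slc29a1, which carries adenosine and other nucleosides, was lower in efficiency by the same unadjusted measure, at -0.35 ± 0.16 (adjusted p = 0.688), with 32.6 ± 5.48 CPM in leucine and 36.1 ± 5.24 CPM in vehicle libraries (SD, n = 6 and 5) in footprints and 25.98 ± 2.31 CPM in leucine and 22.7 ± 2.49 CPM in vehicle libraries (SD, n = 6 and 5) in RNA. Slc35a4 was at -0.29 ± 0.19 and the zinc importer Slc39a10 at -0.26 ± 0.15 in efficiency.

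Iron and other metal carriers gave 6 positive and 6 negative footprint changes, with a median of 0.00. Slc40a1, the iron exporter ferroportin, was at 0.16 ± 0.22 in footprints, -0.31 ± 0.22 in RNA and 0.45 ± 0.32 in efficiency. Its footprint value of 56.4 CPM in leucine library A1 lay far above the other 5 leucine libraries (23.01 to 30.4 CPM), and without that library the change was -0.10. Slc39a14, which takes up zinc and iron, was at 0.10 ± 0.14. The 9 carriers of nucleosides, nucleotide sugars, sugar phosphates and acetyl-CoA had 2 positive and 7 negative footprint changes (all genes 2795 and 3259). Their median was -0.05, and none was called. Among them Slc37a4 was at 0.01 ± 0.14, Slc35b1, which brings ATP into the endoplasmic reticulum, at 0.11 ± 0.08, and Slc33a1, the acetyl-CoA carrier of the same membrane, at -0.10 ± 0.08. The myo-inositol carrier Slc5a3 was at -0.16 ± 0.15 and the vitamin C carrier Slc23a2 at -0.11 ± 0.09. Of the lipid-related carriers, Slc27a1, which takes up fatty acids, had a change of 0.12 ± 0.32 and the widest footprint interval of the 63, -0.57 to 0.81. Slc44a2 was at 0.07 ± 0.14 in footprints and 0.16 ± 0.09 in RNA. Slc45a4 was at -0.11 ± 0.13 and -0.22 ± 0.22, and Slc35e4 at -0.05 ± 0.13 and -0.21 ± 0.14.

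Less abundant carriers appear only in the authors' deposited tables of edgeR results, which have no values per library. The authors' deposited footprint table listed 130 carriers under the same naming rule, 72 of them outside the count table, and 0 of the 130 had an FDR under 0.05, where 0.922% of its 9766 rows did. The authors' deposited RNA table listed 132 and 0 passed, where 0.02% of its 10000 rows did. Slc7a5, the LAT1 light chain that carries leucine, had a log2 change of -0.07 in the authors' deposited footprint table. Slc2a1 (GLUT1) had 0.14 in footprints and -0.11 in RNA in the authors' deposited tables, and Slc43a2, the LAT4 carrier of branched-chain amino acids, had 0.03 and 0.04. The authors' deposited footprint table had 6 carriers at a p under 0.05 (4.62%, where 6.71% of all its rows were), named here after their values were seen: Slc2a3 (-0.52), Slc41a2 (-0.38), Slc7a8 (0.30), Slc30a2 (0.48), Slc47a1 (0.57) and Slc36a2 (1.45). The lowest FDR among them in the authors' deposited table, for Slc2a3, was 0.440. The authors' deposited RNA table had 2 (1.52%, where 2.41% of all its rows were), of which Slc16a12 had -0.47.

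More carriers differed between the column sets than between leucine and vehicle. With treatment in the model, a comparison added after the data were seen, edgeR called 10 carriers higher (15.9%, all genes 11.7%) and 5 lower (7.94%, all genes 12.2%) in set B than in set A in footprints. In RNA it called 7 higher (11.1%, all genes 9.02%) and 6 lower (9.52%, all genes 9.8%). In both assays 6 carriers were called, which is 40% of the footprint calls and 46.2% of the RNA calls, and all 6 had the same sign in both. Over all genes the genes called in both made up 30% of the footprint calls and 37.9% of the RNA calls, and 94.9% of them had the same sign. Slc7a2 was lower in set B by the log2 difference -0.87 ± 0.16 in footprints and -0.87 ± 0.18 in RNA, Slc43a3 by -0.51 ± 0.11 and -0.51 ± 0.10, and Slc15a4 by -0.33 ± 0.10 and -0.29 ± 0.09. Slc9a2, a sodium and proton exchanger, was higher by 0.63 ± 0.09 and 0.45 ± 0.09, Slc41a3 by 0.43 ± 0.11 and 0.50 ± 0.10, and Slc39a7 by 0.21 ± 0.06 and 0.40 ± 0.10. In footprints Slc8a1 was at 0.85 ± 0.14, Slc2a12 at 0.51 ± 0.12, Slc16a3 at -0.44 ± 0.08 and Slc38a4 at 0.40 ± 0.11. Both treatments are in both sets, and the test of a treatment effect that differs between sets called 0 genes, with 0 carriers in footprints (all genes 2.91%) and 2 in RNA, Slc20a1 and Slc29a1 (all genes 1.82%), at an unadjusted p under 0.05. No label says what the sets stand for.

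**Figure D4:**
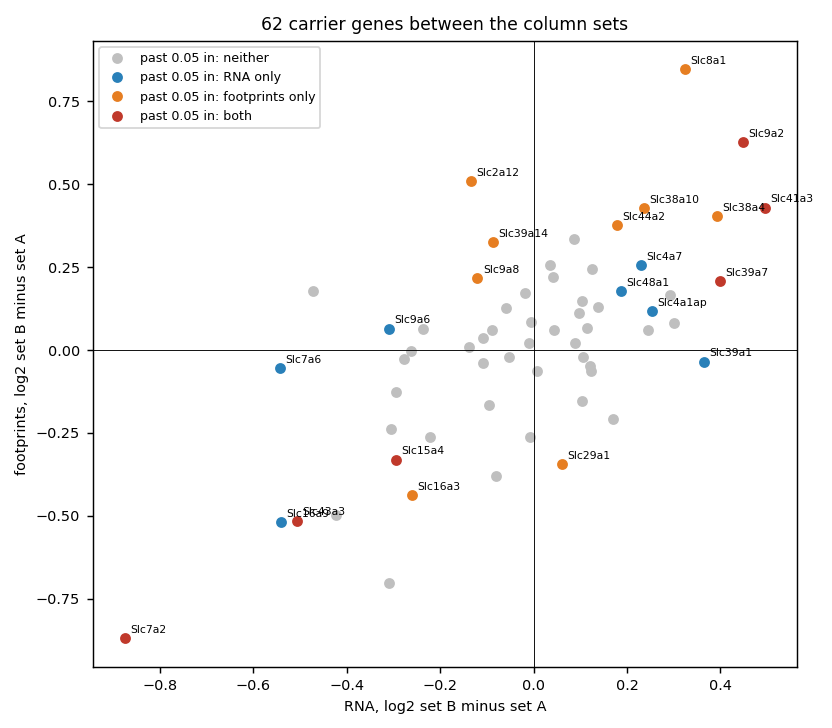
Log2 difference of 62 of the 63 carriers between the column sets, set B minus set A, in RNA (horizontal axis) and footprints (vertical axis), with treatment in the model. Colours mark an adjusted p under 0.05 in neither assay, RNA only, footprints only or both. Slc7a2 lies lowest in both assays at -0.87, and Slc8a1 highest in footprints at 0.85.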

How the data were processed

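Mouse quadriceps was profiled by total RNA sequencing after ribosomal RNA depletion and by ribosome profiling, with the same small RNA library kit, per the labels' protocols. The authors deposited whole-number counts per gene, with RefSeq transcript identifiers, for 22 libraries. No count lies below 129, so the table holds abundant genes only. All sample columns were used (0 unused). They name a group but no replicate number. The authors also deposited, per the file headers, edgeR tables with log2 fold changes, p-values, FDR values and transcript lengths, used only in sentences that name them and for lengths. Bowtie, edgeR and build mm9 are named in the submitters' processing notes. For tool versions, strand setting and multiply matching reads, the sources used here give nothing, so genes with close copies or antisense partners are uncertain.

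The model for counts was edgeR's, version 4.0.16 under R 4.3.3 (TMM factors, filterByExpr, robust quasi-likelihood, Benjamini-Hochberg adjustment over all 6054 genes, threshold 0.05). The filter removed 0 genes. Efficiency is the interaction of treatment and assay over 22 unpaired libraries. The footprint to RNA ratio used the 10 vehicle libraries. CPM use TMM-adjusted totals within an assay, so changes are relative to other genes. Log2 changes are leucine minus vehicle, ± SE. Coding lengths and start windows come from GENCODE release 21 on GRCm38, matched by RefSeq identifier (63 of 63 carriers, 5985 genes). The scripts were tested on simulated counts. DESeq2 1.42.0, limma 3.58.1 (voom), other factors, filters, set terms and each library left out were alternatives.

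The 42 carriers named under the rule were, in each leucine comparison, the 4 largest positive and 4 largest negative changes and the 3 smallest p, the 29 measured of 43 listed carriers of known role, the 6 highest and 6 lowest ratios and the 6 highest vehicle RNA levels per coding length. Some of these values are not reported here, and the plots of all carriers leave out 1 gene. Others are named for levels, sets or groups after their values were seen. The members and lists were chosen with earlier results of these data known.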

Additional observations from a re-analysis of the deposited data

Results flagged for a closer look

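Within groups of 5 or 6 libraries of the 42 named carriers, 168 groups were looked at for a highest or lowest library far from the others, and 12 were found; chance flags about 1 in 20 groups. In leucine RNA, library A3 was the highest for Slc40a1 (52.1 CPM, others 31.1 to 36.2), Slc45a4 (24.2 CPM, others 9.92 to 13.9), Slc9a8 (20.1 CPM, others 10.9 to 14.3) and Slc38a9 (17.6 CPM, others 14.1 to 15.01). Library A1 of leucine RNA was the highest for Slc7a2 (203 CPM, others 61.6 to 112) and Slc12a2 (184 CPM, others 144 to 156).

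In leucine footprints, library A1 was the highest for Slc40a1 (56.4 CPM, others 23.01 to 30.4) and the lowest for Slc2a4 (449.7 CPM, others 546.5 to 589.8). Library A3 of leucine footprints was the highest for Slc16a9 (13.8 CPM, others 6.03 to 8.21) and Slc37a4 (173 CPM, others 105.8 to 124.8), and library B1 for Slc39a10 (11.03 CPM, others 7.40 to 8.73). In vehicle footprints, library B2 was the highest for Slc38a10 (28.3 CPM, others 15.1 to 17.8). None of these carriers was called between leucine and vehicle, with or without the library.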

How the results depend on the processing

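No paired analysis was possible because the columns carry none of the labels' replicate numbers. The count of 0 called carriers held in footprints, RNA and efficiency under every alternative run, including each library left out in turn. With libraries left out, the median carrier change ran from -0.055 to 0 in footprints, from -0.025 to 0.002 in RNA and from -0.064 to -0.002 in efficiency. The footprint median within set B alone was -0.077. Over all genes, the upper-quartile factors and limma-voom gave 0 footprint calls and DESeq2 gave 188 higher and 65 lower, and leaving out 1 library gave 0 to 84 higher and 0 to 14 lower, so the share of genes called in footprints rests on which libraries are in.

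For the footprint to RNA ratio in vehicle muscle, the carriers called lower numbered 23 of 44 tested with a mean count of at least 500 (all genes 1812 of 4767). With the coding share offset they numbered 18 of 63 (all genes 2051 of 5985). Leaving out a library gave 15 to 18 carriers higher and 31 to 35 lower, and a carrier median of -0.425 to -0.327. Over all 6054 genes, 2189 to 2277 were then higher and 2195 to 2260 lower. The median carrier was at -0.312 within set B, at -0.069 with the offset and at -0.201 from the line fitted on coding share. Among the 42 carriers named by rule, a ratio called with or without the change turned its sign with the offset for Slc16a10 (0.398), Slc35a4 (0.458), Slc38a9 (1.028), Slc39a14 (0.629), Slc7a2 (0.596) and Slc8a1 (0.31), and within set B for Slc27a1 (-0.465). Of 872 ratios recomputed for these 42, 46 lost and 12 gained their call, and 23 changed sign, the 7 above among them. Between sets, DESeq2 called 11 of 63 carriers and 1036 of 6044 genes lower in RNA, where edgeR called 6 of 63 and 593 of 6054. The cause was not tested, except that the stricter filter tested fewer genes.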
